A study of Homo sapiens with 4 samples.

Results

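Levels of 10 genes of the YAP pathway were followed in RPE1, a telomerase-immortalised human cell line from retinal pigment epithelium, after depletion of SAF-A, a nuclear protein that binds RNA and chromatin. The genes are CCN1 and CCN2 (also written CYR61 and CTGF), ANKRD1, AXL, AMOTL1, AMOTL2, LATS2, AJUBA, TEAD1 and YAP1. They were listed by name, with earlier results of these data known, and make up 10 of 25027 gene symbols or identifiers in the deposited tables. Together they were represented by 23 of 47338 RefSeq rows, and the values of a gene's rows were summed. All 10 passed the filter used for comparisons, which asks for 1 FPKM or more as the mean of all libraries and a spliced length of 300 nt or more, as did 11053 genes in all. FPKM counts fragments per transcript relative to transcript length and to library depth.

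The 4 groups were RPE1 cells given negative control siRNA and examined at 24 h, given SAF-A siRNA and examined at 24 h, given control siRNA and examined at 48 h, and given SAF-A siRNA and examined at 48 h. Every group received 10 nM Stealth RNA with Lipofectamine RNAi MAX at 10 to 20% confluency. A single siRNA against SAF-A was used, and the cell density at collection is not given in the sources used here. RNA depleted of ribosomal RNA was read as 50-base single-end reads, with 1 library per group. No group has a replicate. A model with additive terms for siRNA and time would leave 1 residual degree of freedom and would assume 1 siRNA effect for both times, and it was not fitted. Every difference below therefore compares libraries, not conditions, and has no replicate check.

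YAP, encoded by YAP1, is a transcriptional coactivator that lacks a DNA-binding domain and reaches promoters and enhancers through TEAD factors such as TEAD1. The Hippo kinases LATS1 and LATS2 phosphorylate YAP, which keeps it in the cytoplasm, and angiomotin family proteins such as AMOTL1 and AMOTL2 bind it there. Sparse growth, spreading and tension on the cytoskeleton are known to favour nuclear YAP, while crowding restrains it. In epithelial and mesenchymal cells CCN1, CCN2 and ANKRD1 are the targets most often used as a readout, and AMOTL2 and LATS2 are targets that feed back on YAP.

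One library stood apart from the rest. The deposited values imply 28083822, 30701282 and 28586051 mapped reads for control at 24 h, SAF-A siRNA at 24 h and control at 48 h, but 1216740 for the SAF-A library at 48 h. A level of 1 FPKM on a transcript of 2 kb stood for 2.19 reads in that library and for 50.5 to 55.2 in the other 3. HNRNPU, the gene of SAF-A, was at 91.2 and 84.6 FPKM in the control libraries at 24 h and 48 h. It was at 10.4 and 9.24 FPKM with SAF-A siRNA, which is 11.4% and 10.9% of control, so the target was low in both libraries labelled as depleted. Without the shallow library no comparison at 48 h remains, and the results at 24 h and the difference between the control libraries do not use it.

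At 24 h none of the 10 genes was 2-fold from control, and the largest differences were higher levels of LATS2 (1.44-fold) and CCN2 (1.23-fold). At 48 h CCN2 and ANKRD1 were several-fold lower with SAF-A siRNA, CCN1, AMOTL1, AMOTL2 and YAP1 were lower by smaller factors, AXL (summed over its transcripts) and TEAD1 were higher, and LATS2 and AJUBA were within counting error of control. The number of genes in the whole transcriptome that differed by the same amount was also much larger at 48 h than at 24 h, and the shares are given with the counts. In bulk RNA, fewer cells expressing a gene and less of its RNA per cell cannot be told apart.

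**Figure D1:**
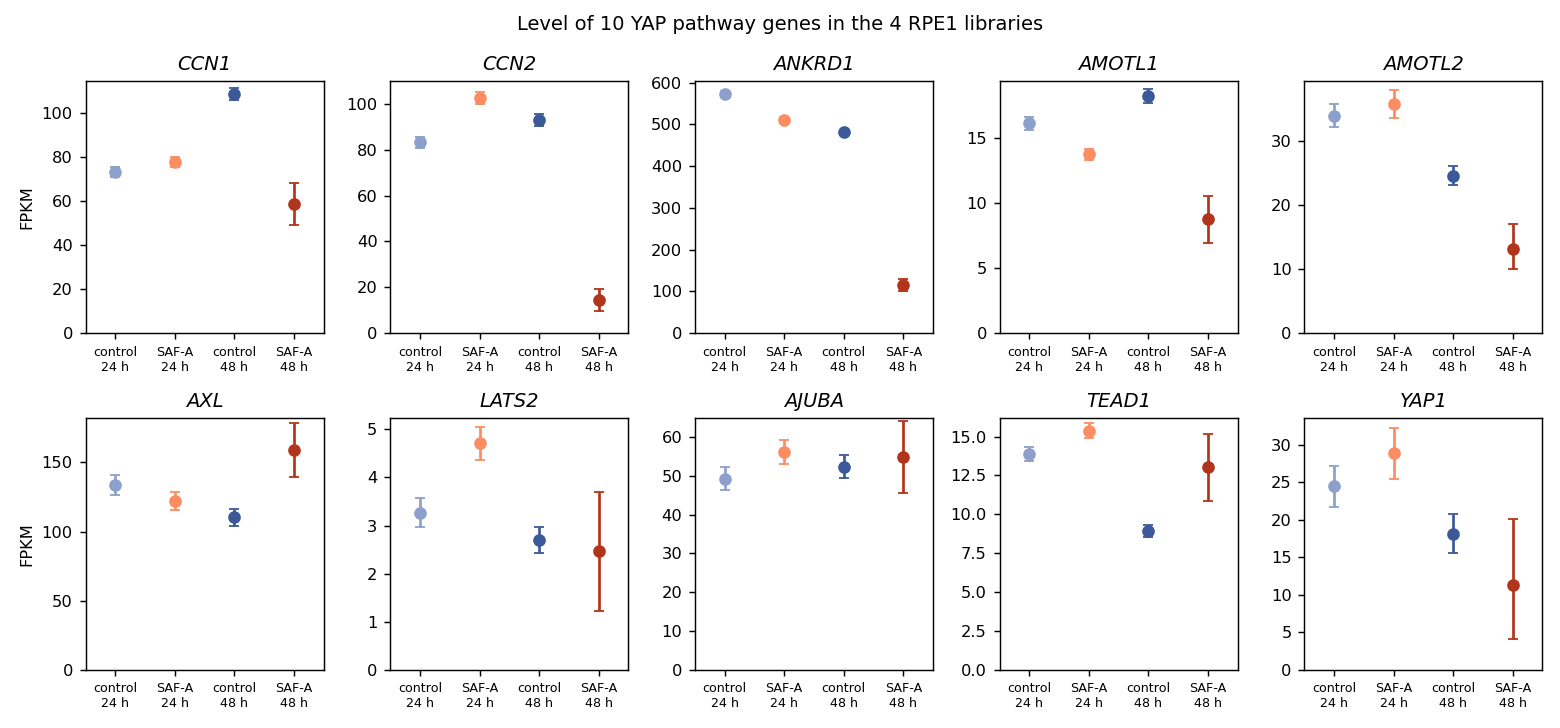
FPKM (vertical axis, from 0, a different scale for each gene) of the 10 genes in the 4 libraries (horizontal axis), with points for the deposited value summed over a gene's rows and bars for the authors' 95% bounds summed in the same way. CCN2 and ANKRD1 were lowest with SAF-A siRNA at 48 h, at 14.6 and 115.6 FPKM, and the bars are widest in that library for each of the 10 genes.

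The secreted matricellular proteins CCN1 and CCN2 bind integrins and growth factors in the extracellular matrix. CCN2 (minus strand, chr6:132269317-132272518 in hg19, a single RefSeq transcript of 5 exons) was at 83.4 FPKM in control at 24 h, 102.8 FPKM with SAF-A siRNA at 24 h, 93.0 FPKM in control at 48 h and 14.6 FPKM in the SAF-A library at 48 h. The first 3 libraries lay near each other and the last was far below them, with authors' bounds of 9.84 to 19.4 FPKM that did not reach any of the others. At 48 h CCN2 was 6.37-fold lower than control (95% exact binomial interval on estimated reads 4.64 to 9.03, counting error only), from about 38 reads. Its difference of -2.59 in log2(FPKM + 1) ranked 127 from the lowest of 11053 genes. At 24 h the ratio to control was 1.23 (1.19 to 1.28), a higher level with SAF-A siRNA. This interval does not cover the choice of scale. Rescaling each library to the same total moved the median of all tested genes at 24 h from -0.07 to -0.23 in log2.

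CCN1 (plus strand, chr1:86046444-86049648, a single transcript of 5 exons) was at 73.2 FPKM in control at 24 h, 77.9 FPKM with SAF-A siRNA at 24 h, 108.7 FPKM in control at 48 h and 58.6 FPKM in the SAF-A library at 48 h. The 2 siRNAs therefore went apart with time, with the control library higher at 48 h than at 24 h and the SAF-A library lower. At 24 h the ratio to control was 1.07 (1.02 to 1.11), and on the TPM scale, which rescales each library to the same total, that difference turned to -0.09 in log2. CCN1 was 1.86-fold lower than control at 48 h (interval 1.58 to 2.201, about 149 reads). Between the control libraries CCN1 differed by 0.57 in log2(FPKM + 1), rank 356 from the highest of 11053 genes. Part of the deficit at 48 h was thus a higher level in its control, since with SAF-A siRNA alone the 48 h library was 1.33-fold below the 24 h library (interval 1.13 to 1.58).

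ANKRD1 (minus strand, chr10:92671857-92681032, 9 exons) encodes a nuclear and sarcomeric ankyrin repeat protein first known from cardiac muscle, and was the most abundant of the 10 genes in the first 3 libraries. It was at 572.8 FPKM in control at 24 h, 511.1 FPKM with SAF-A siRNA at 24 h, 480.4 FPKM in control at 48 h and 115.6 FPKM in the SAF-A library at 48 h. The last library again lay far below the rest, with authors' bounds of 100.7 to 130.5 FPKM. ANKRD1 was 4.15-fold lower than control at 48 h (interval 3.66 to 4.72, about 250 reads), a difference of -2.05 in log2(FPKM + 1) that ranked 375 from the lowest. At 24 h it was at 89.2% of control (87.8 to 90.7%), on the other side of control from CCN2.

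AXL (plus strand, chr19:41725104-41767672) encodes a receptor tyrosine kinase for GAS6. Summed over its transcripts, AXL was above control at 48 h, unlike CCN1, CCN2, ANKRD1 and AMOTL2, while LATS2 was not resolved. It was at 133.7 FPKM in control at 24 h, 122.2 FPKM with SAF-A siRNA at 24 h, 110.3 FPKM in control at 48 h and 158.8 FPKM in the SAF-A library at 48 h. Its highest level was in the library where CCN2 and ANKRD1 were lowest, where it was also the most abundant of the 10. AXL was 1.44-fold higher than control at 48 h (interval 1.34 to 1.54, about 876 reads), and at 24 h its authors' bounds overlapped with those of control. Counted by its most abundant transcript alone, the difference at 48 h was -0.20 in log2(FPKM + 1), with overlapping bounds. The split between transcripts rests on few reads, as described further on.

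The feedback regulators and inhibitors of YAP did not all go one way. AMOTL2 (minus strand, chr3:134074187-134094259), a scaffold of the angiomotin family at junctions and actin, was at 33.9 FPKM in control at 24 h, 35.7 FPKM with SAF-A siRNA at 24 h, 24.6 FPKM in control at 48 h and 13.2 FPKM in the SAF-A library at 48 h. It was lower at 48 h than at 24 h under either siRNA, and 1.87-fold lower with SAF-A siRNA than with control at 48 h (interval 1.49 to 2.37, about 77 reads). At 24 h its bounds overlapped with those of control. Its paralog AMOTL1 (plus strand, chr11:94501508-94609918) was at 16.1 FPKM, 13.8 FPKM, 18.3 FPKM and 8.78 FPKM in the same order. AMOTL1 was below control at both times, at 85.2% at 24 h and 2.08-fold lower at 48 h (interval 1.70 to 2.58, about 94 reads), and its bounds were apart from control each time. Among the 10 genes it alone was past 2-fold at 48 h with a pseudocount of 0.1 but not with 1, which gave a difference of -0.98 in log2(FPKM + 1).

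LATS2 (minus strand, chr13:21547176-21635722), the kinase that phosphorylates YAP, had the lowest level of the 10 in every library. It was at 3.27 FPKM in control at 24 h, 4.71 FPKM with SAF-A siRNA at 24 h, 2.70 FPKM in control at 48 h and 2.46 FPKM in the SAF-A library at 48 h. The SAF-A library at 24 h was the high one, 1.44-fold above its control (interval 1.29 to 1.62), which in log2(FPKM + 1) was the largest of the 10 differences at that time, 0.42, rank 340 from the highest. At 48 h LATS2 was at 91.2% of control on about 16 reads, with an interval of 51.7 to 150.0%. That interval includes equal levels, so a difference in either direction within it was not resolved at this depth. AJUBA (minus strand, chr14:23440410-23451848), a LIM-domain protein that inhibits LATS kinases, was at 49.3 FPKM, 56.1 FPKM, 52.4 FPKM and 54.8 FPKM in the order of the groups above. AJUBA was the steadiest of the 10, with a ratio to control of 1.14 (1.10 to 1.18) at 24 h and 1.05 (0.921 to 1.18) at 48 h. Its difference at 24 h depended on the scale, at 0.18 in log2(FPKM + 1) and 0.0016 in log2 on the TPM scale.

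YAP1 (plus strand, chr11:101981192-102104154) was at 24.5 FPKM in control at 24 h, 28.9 FPKM with SAF-A siRNA at 24 h, 18.2 FPKM in control at 48 h and 11.3 FPKM in the SAF-A library at 48 h. It was lower at 48 h than at 24 h under both siRNAs. YAP1 was 1.61-fold lower with SAF-A siRNA than with control at 48 h by the counting interval (1.27 to 2.07, about 70 reads), but the authors' bounds, 4.09 to 20.1 FPKM in the shallow library, overlapped with those of control.

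TEAD1 (plus strand, chr11:12695969-12966284), the DNA-binding partner, was at 13.9 FPKM in control at 24 h, 15.4 FPKM with SAF-A siRNA at 24 h, 8.94 FPKM in control at 48 h and 13.03 FPKM in the SAF-A library at 48 h. The control library at 48 h was the low one. TEAD1 was 1.46-fold higher with SAF-A siRNA than with control at 48 h (interval 1.22 to 1.72, about 146 reads). Between the control libraries its difference was -0.58 in log2(FPKM + 1), rank 260 from the lowest, whereas the SAF-A libraries at 24 h and 48 h had overlapping bounds. By summed FPKM the mRNA of the coactivator and that of its partner stood on opposite sides of control at 48 h. For YAP1 the authors' bounds overlapped with control, so this opposition was not resolved by them.

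By FPKM, which is scaled to length, the order of the 10 genes in control at 24 h ran from ANKRD1 and AXL through CCN2, CCN1, AJUBA, AMOTL2, YAP1, AMOTL1 and TEAD1 to LATS2. Each gene's bounds were apart from those of its neighbours in this order in that library. With SAF-A siRNA at 48 h the bounds of CCN1 and AJUBA overlapped, as did those of CCN2, AMOTL2, TEAD1 and YAP1, while AMOTL1 overlapped with CCN2, AMOTL2 and YAP1, so their order was not resolved. CCN2 thus stood above CCN1 in control at 24 h and among AMOTL2, TEAD1 and YAP1 in the shallow library.

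Counted over the 10 genes, none was at least 2-fold higher or lower in log2(FPKM + 1) with SAF-A siRNA at 24 h, where 0.389% of 11053 genes were higher and 0.244% were lower by that measure. At 48 h, 2 of 10 were at least 2-fold lower, CCN2 and ANKRD1, against a background of 18.5% lower, and 0 of 10 were higher, against 14.3%. The share of the 10 genes past 2-fold lower was therefore near the background. The median of the 10 differences was 0.11 at 24 h, where the median of all tested genes was -0.07, and -0.75 at 48 h, where it was -0.11. Between the control libraries 0 of 10 were higher and 0 of 10 lower at 48 h, against 0.561% and 0.425%. Between the SAF-A libraries 0 were higher, against 15.5%, and 4 of 10 were lower at 48 h, CCN2, ANKRD1, AMOTL2 and YAP1, against 16.0%. The background itself moved with the scale. On the TPM scale 29 genes were higher and 38 lower at 24 h (43 and 27 as reported), 80 and 37 between the control libraries (62 and 47), and 2342 and 1330 between the SAF-A libraries (1717 and 1769), and after centring 1864 and 1724 at 48 h (1581 and 2040). The comparisons at one time and those within one siRNA share libraries and are not independent.

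**Figure D2:**
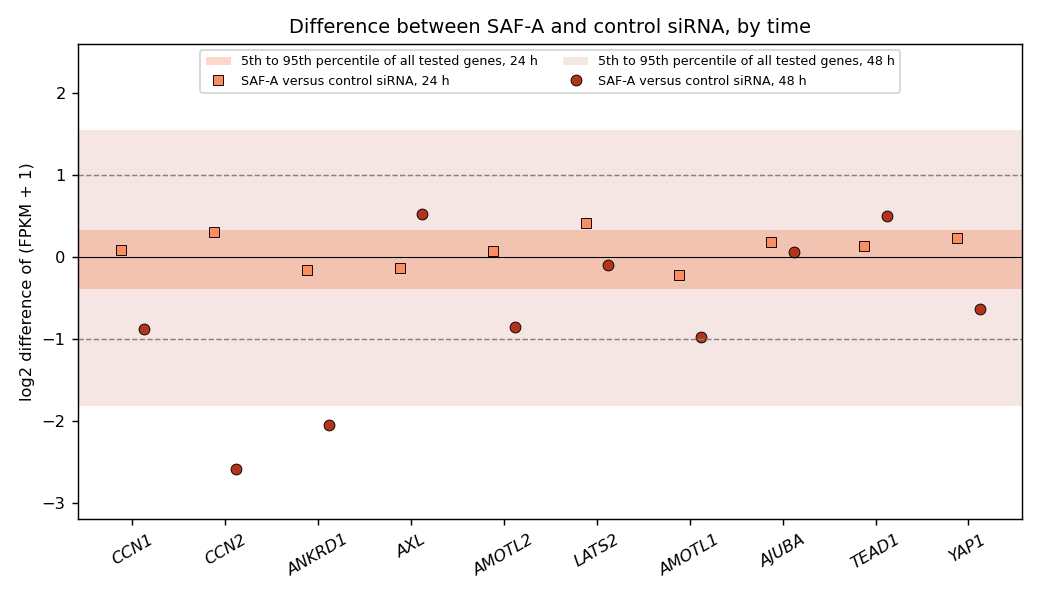
Difference in log2(FPKM + 1) between SAF-A and control siRNA (vertical axis) for the 10 genes (horizontal axis), squares at 24 h and circles at 48 h, with bands from the 5th to the 95th percentile of 11053 tested genes and dashed lines at 2-fold. At 48 h CCN2 at -2.59 and ANKRD1 at -2.05 lie below the wide band, which reaches -1.82, and at 24 h LATS2 at 0.42 lies just above the narrow band, which reaches 0.33.

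The difference at 48 h minus that at 24 h was -2.89 for CCN2 in log2(FPKM + 1), rank 56 from the lowest of 11053 genes, and -1.88 for ANKRD1, rank 368. For CCN1, AMOTL2, YAP1 and AMOTL1 it was -0.97, -0.92, -0.87 and -0.76, and for LATS2 and AJUBA it was -0.52 and -0.12. TEAD1 and AXL had values above 0, 0.36 and 0.65. Without replicates the difference between the times was not tested.

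Transcript length also moved with the differences at 48 h. The median difference of all tested genes in log2(FPKM + 1) was 0.13 for spliced lengths of 300 to 1500 nt and 0.00 for 1500 to 2500 nt. It was -0.17 for 2500 to 4000 nt, -0.20 for 4000 to 7000 nt and -0.22 from 7000 nt on. The group of 4000 to 7000 nt holds AMOTL2, AXL, LATS2, AJUBA and YAP1. Of its genes 17.1% were at least 2-fold lower and 8.94% higher. CCN1, CCN2 and ANKRD1, at 2293, 2343 and 1974 nt, fall in the group centred on 0, of which 17.6% were at least 2-fold lower. AMOTL1, at 8999 nt, and TEAD1, at 9416 nt, belong to the group with the lowest median, and they lay on opposite sides of control. The part of length in the result for AMOTL1 was not tested.

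TEAD factors bind the core motif GGAATG, whose reverse complement is CATTCC. It was searched on both strands in RefSeq promoters (GRCh38.p14, 250 bases before to 50 after a start). Of the 10 genes, 8 had at least 1 entry, and CCN1 and TEAD1 were not matched. The motif occurred 3 times before the start of CCN2 and 2 times before that of ANKRD1, the pair with the lowest values at 48 h, and once before that of YAP1. AMOTL2, AXL and AJUBA had 1 site each before their second listed start and none at the first. LATS2 had 1 site after its start, and AMOTL1 had 0. The upstream stretches that hold the sites of CCN2, ANKRD1 and YAP1 are shown because these starts have the motif at their only listed entry, with the motif in capitals, on the strand of the gene, in GRCh38.p14, minus strand at chr6:131951450-131951553 for CCN2, minus strand at chr10:90921198-90921319 for ANKRD1 and plus strand at chr11:102110273-102110302 for YAP1.
CCN2: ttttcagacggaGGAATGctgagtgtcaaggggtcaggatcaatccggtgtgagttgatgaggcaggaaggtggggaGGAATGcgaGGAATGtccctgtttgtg
ANKRD1: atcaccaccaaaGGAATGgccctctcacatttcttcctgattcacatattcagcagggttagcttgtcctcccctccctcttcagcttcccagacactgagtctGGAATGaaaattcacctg
YAP1: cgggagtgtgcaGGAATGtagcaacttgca

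Counted from the start, the sites of CCN2 began at -169, -104 and -95, so that the nearer ones lie side by side, those of ANKRD1 at -220 and -128, and that of YAP1 at -162. Among all 35116 promoter entries, 14.03% held at least 1 such site, 1.37% at least 2 and 0.128% at least 3. Over tested genes with a promoter entry, the median difference at 48 h in log2(FPKM + 1) was -0.08 for the 7535 genes with 0 sites, -0.08 for the 1183 with 1 site, -0.12 for the 108 with 2 and -0.30 for the 8 with 3 or more. The number of sites thus went with little difference over the transcriptome, and the last group holds CCN2 itself. A match of letters is a description and not evidence of binding.

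**Figure D3:**
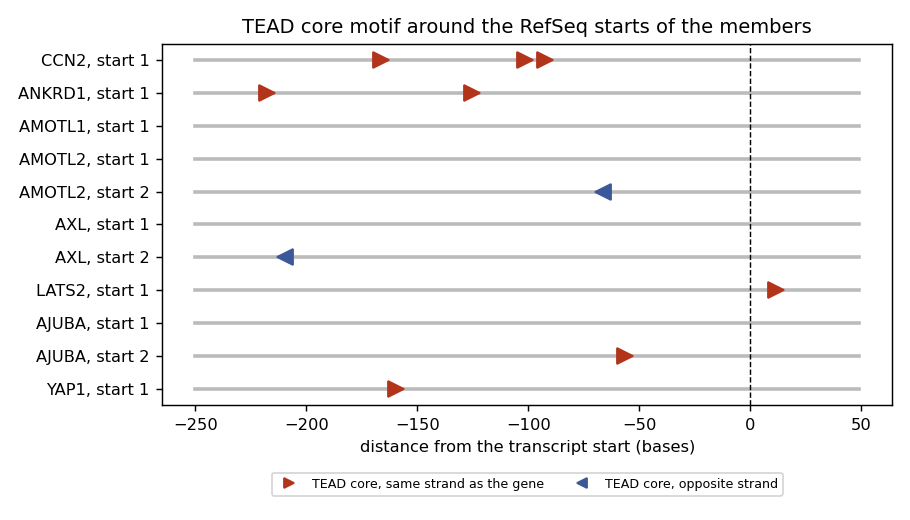
Position of the TEAD core motif (triangles, pointing right on the strand of the gene and left on the other) along the RefSeq promoter entries of 8 genes (grey lines), with distance from the transcript start in bases on the horizontal axis. CCN2 has 3 and ANKRD1 has 2 sites upstream of the start, and the first listed starts of AMOTL1, AMOTL2, AXL and AJUBA have none.

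AXL is spliced into transcripts with and without an in-frame exon of 27 nt that encodes part of the extracellular stretch next to the membrane. The exon lies on the plus strand at chr19:41745599-41745625 in hg19 and is shown in capitals with 12 bases of intron on either side, because the transcript with the largest difference at 48 h includes it.
AXL exon: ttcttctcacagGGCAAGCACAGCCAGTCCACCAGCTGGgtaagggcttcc

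The intron ends in AG before the exon and begins with GT after it, the usual splice site letters. NM_021913, which includes the exon, was at 44.4 FPKM in control at 24 h, 42.5 FPKM with SAF-A siRNA at 24 h, 45.8 FPKM in control at 48 h and 111.2 FPKM in the SAF-A library at 48 h. NM_001699, which skips it, was at 78.9 FPKM, 67.0 FPKM, 55.0 FPKM and 47.6 FPKM in the same order. In these estimates the higher AXL sum at 48 h was assigned to NM_021913, while NM_001699 had overlapping bounds in the 48 h libraries. The third transcript, NM_001278599, has the exon and another start, and was at 10.5, 12.7, 9.42 and 0.00067 FPKM. Transcripts with the exon made up 41.0%, 45.2%, 50.1% and 70.0% of AXL FPKM. These shares are estimates from reads that the transcripts mostly hold in common. In the SAF-A library at 48 h the estimated FPKM imply 10.3 reads that touch the exon and 2.84 that span the skipping junction, against 120.0 and 77.1 in control at 48 h. With so few reads a shift between the AXL transcripts was not resolved.

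**Figure D4:**
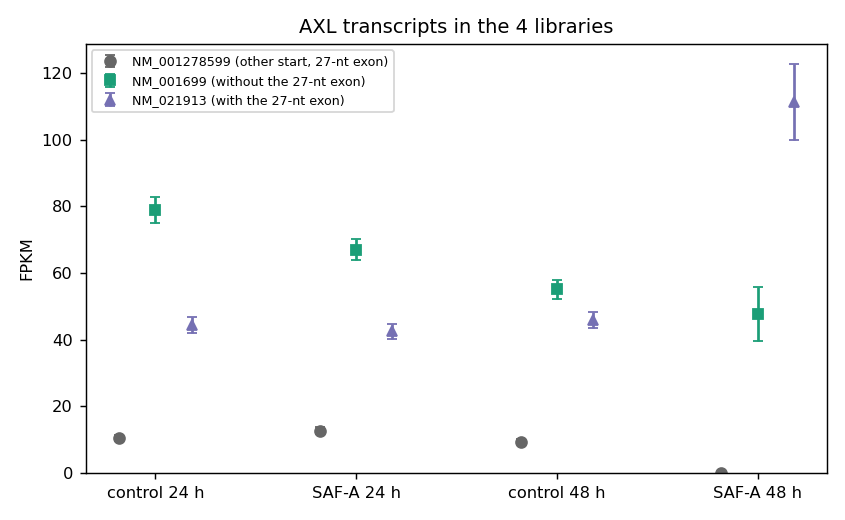
FPKM (vertical axis, from 0) of the 3 RefSeq transcripts of AXL in the 4 libraries (horizontal axis), with bars for the authors' 95% bounds. NM_021913 is at 111.2 FPKM in the SAF-A library at 48 h, against 42.5 to 45.8 FPKM in the other 3 libraries.

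YAP1 had 9 RefSeq transcripts, which differ mainly in an exon of 114 nt for the second WW domain, the module that binds PPxY motifs in LATS kinases and angiomotins, and in a pair of short inserts near the transactivation domain. The 114 nt exon lies on the plus strand at chr11:102056749-102056862 in hg19 and is shown in capitals with 12 bases on either side, as the part that separates the forms with a single WW domain from those with a pair.
YAP1 exon: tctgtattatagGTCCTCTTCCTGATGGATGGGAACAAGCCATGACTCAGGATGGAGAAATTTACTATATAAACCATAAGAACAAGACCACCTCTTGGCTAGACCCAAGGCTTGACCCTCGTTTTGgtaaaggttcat

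Transcripts with this exon made up 98.7% of YAP1 FPKM in control at 24 h, 80.1% with SAF-A siRNA at 24 h and 80.1% in control at 48 h. The form with a pair of WW domains was therefore the main one in these 3 libraries. With SAF-A siRNA at 48 h the estimate was 40.3%, but it implies 0.902 reads on the exon and 0.402 on the skipping junction, too few to give a share. AMOTL2 was nearly all in NM_016201 in control at 24 h, and in the SAF-A library at 24 h NM_001278683, which has another first exon, was given 24.4% of its FPKM, against 4.47% in control at 48 h. Counted by its most abundant transcript, AMOTL2 was lower than control at 24 h, by -0.32 in log2(FPKM + 1), where the sum was higher by 0.07 (-0.11 on the TPM scale). CCN1, CCN2, ANKRD1, AMOTL1, LATS2 and TEAD1 each had a single RefSeq row, for which no transcript choice arises.

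The genes whose values were most like a member's over the 4 libraries were found by the Euclidean distance between log2(FPKM + 1) values centred on each gene's mean, among 7710 genes that averaged 5 FPKM or more. Nearest to CCN2 were the histone genes H2AC21, H2AC18 and H2BC21, at distances of 0.11, 0.15 and 0.19. H2AC21 was at 175.9, 197.8, 195.6 and 30.3 FPKM in the order of the groups above, so a single low library sets this likeness. ANKRD1 was at a distance of 0.52 from CCN2 and CCN1 at 1.83. Nearest to CCN1 were MIA2, BDH2 and LIMA1, at 0.04, 0.04 and 0.07, and near YAP1 were RAD1 and STMP1, at 0.05 and 0.07. Among the 10 genes AMOTL1 was closest to CCN1, at 0.37, and AMOTL2 was closest to YAP1, at 0.20. Distances over 4 libraries, of which 1 is shallow, describe these libraries only.

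The wider set of core YAP and TAZ targets held 22 genes, of which 16 are outside the 10 described here. At 48 h 2 of the 22 were at least 2-fold higher and 5 were lower, where 14.3% and 18.5% of all tested genes were, with a median of -0.33 in log2(FPKM + 1) against -0.11 for all tested genes. Of the 16 others, 2 were higher and 3 were lower, with a median of -0.22. CRIM1, a transmembrane protein that binds BMPs, was at 161.7, 100.2, 152.7 and 20.5 FPKM in the order of the groups above, which is 7.44-fold lower than control at 48 h. ASAP1, an ARF GTPase-activating protein, was on the other side at 5.79, 6.62, 4.95 and 21.7 FPKM. So was MYOF, at 84.8, 78.8, 107.1 and 296.3 FPKM. Of the 22 genes, 7 were above control at 48 h and 15 were below. At 24 h none of the 22 was past 2-fold, the median was -0.07, and IGFBP3, which binds insulin-like growth factors, was the lowest at -0.78. The counts of these targets past 2-fold at 48 h were thus near the background.

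Of the genes for the nuclear complex, YAP1, its paralog WWTR1 (TAZ), TEAD1 to TEAD4 and the TEAD cofactor VGLL4, 2 of 7 were at least 2-fold higher at 48 h (14.3% of all tested genes) and 1 was lower (18.5%), with a median of 0.15. None was past 2-fold at 24 h. WWTR1 was at 12.2, 12.4, 15.9 and 5.85 FPKM in the order of the groups above, 2.71-fold lower than control at 48 h with bounds apart. TEAD2 was at 9.28, 9.76, 6.02 and 23.8 FPKM, 3.95-fold higher than control at 48 h, and VGLL4, a repressor that competes with YAP for TEAD, was at 8.62, 12.01, 12.1 and 28.0 FPKM. At 24 h VGLL4 had the highest difference of the 7, 0.44, and TEAD4 the lowest, -0.59, at 14.7 FPKM in control and 9.45 FPKM with SAF-A siRNA. The medians at 24 h of this list, 0.07 on the FPKM scale and -0.10 after rescaling to TPM, differ in sign.

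Upstream, the list of Hippo kinases and their adaptors held genes on both sides of control at 48 h. Of 17 listed, 16 were tested, and at 48 h 1 was at least 2-fold higher (MAP4K4, which phosphorylates LATS kinases, 28.8 FPKM in control and 64.3 FPKM with SAF-A siRNA) and 1 was lower (WWC2, a scaffold of LATS kinases, 14.8 FPKM and 4.82 FPKM). The background was 14.3% higher and 18.5% lower. With a pseudocount of 0.1 the lower ones were 3. Short of 2-fold on that scale but with bounds apart from control, SAV1, an adaptor of the MST kinases, was at 9.97 FPKM in control and 16.5 FPKM with SAF-A siRNA, and MOB1A, a coactivator of LATS kinases, was at 72.7 and 129.3 FPKM. STK4, the kinase MST1, was at 19.5 and 10.8 FPKM and the cadherin FAT4 at 1.73 and 0.620 FPKM, also with bounds apart. Their median was -0.07 and became 0.04 when centred on all tested genes. At 24 h none was past 2-fold, and LATS2 and WWC1 had the highest and lowest values, 0.42 and -0.52. LATS1 was at 1.19, 1.77, 1.55 and 2.29 FPKM in the order of the groups above, with overlapping bounds at both times.

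Of 10 LIM-domain inhibitors of LATS and subunits of STRIPAK, the phosphatase complex that opposes Hippo kinases, 2 were at least 2-fold higher at 48 h, among them PPP2R1A, and 0 were lower, against 14.3% and 18.5% of all tested genes, with a median of 0.22. PPP2R1A, the scaffold subunit of the phosphatase PP2A, was at 65.3 FPKM in the control library and 218.2 FPKM in the SAF-A library at 48 h. LIMD1 and WTIP, the relatives of AJUBA, had bounds that overlapped with control at both times. None of the 10 was past 2-fold at 24 h, when the median was -0.11, with AJUBA the highest at 0.18 and WTIP the lowest at -0.25. Of 10 junction scaffolds that bind YAP, 8 were tested and none was past 2-fold at either time, from MPDZ at 0.70 to AMOTL1 at -0.98 at 48 h. At 24 h PALS1 was the highest, at 0.17, and the median was -0.01, which became 0.06 when centred. Their median of -0.07 at 48 h became 0.04 when centred, AMOTL1 was past 2-fold on the TPM scale or with a pseudocount of 0.1, and AMOT was at most 0.130 FPKM in any library.

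AP-1 factors bind many enhancers together with TEAD, and SRF with its MRTF coactivators drives cytoskeletal genes that share inputs with YAP. Of 8 AP-1 genes 7 were tested, and at 48 h 5 were at least 2-fold lower with SAF-A siRNA and 1 was higher, against 18.5% and 14.3% of all tested genes, with a median of -1.46. JUN was at 47.6, 43.9, 70.0 and 18.7 FPKM in the order of the groups above, and JUND, the one that was higher, at 9.11, 9.54, 13.2 and 29.0 FPKM. FOS was at 0.328, 0.767 and 6.48 FPKM in the first 3 libraries and is listed at 0 in the SAF-A library at 48 h. Estimated reads there were 0 for FOS, 3 for JUNB, 14 for FOSL1, 31 for FOSL2, 71 for JUN and 62 for JUND. All 7 tested AP-1 genes were higher in control at 48 h than in control at 24 h. At 24 h none was past 2-fold with a pseudocount of 1, from FOS at 0.41 to JUNB at -0.60, with a median of -0.12, and FOS passed it with 0.1.

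Of 17 genes for MRTF, SRF and the cytoskeleton, 15 were tested. At 48 h 4 were at least 2-fold higher, ACTA2, TPM2, MYL9 and TAGLN, and 1 was lower, FHL2, against 14.3% and 18.5% of all tested genes, with a median of 0.35. After centring 5 were higher. Of all tested genes of 300 to 1500 nt, 25.1% were at least 2-fold higher at 48 h and 21.7% lower. The part of length in the counts of this list was not tested. ACTA2, smooth muscle actin, was at 17.7, 21.0, 11.4 and 97.6 FPKM in the order of the groups above, 8.59-fold higher than control at 48 h. TAGLN was at the limit, at 1.01, and was not past it after rescaling to TPM. At 24 h none was past 2-fold, with VCL the highest at 0.43 and FHL2 the lowest at -0.42, and the median of 0.07 became -0.10 on the TPM scale. These 4 contractile genes were thus above control in the library in which CCN2 and ANKRD1 were below it. Of the 15 tested genes 10 were above control at 48 h and 5 were below. SRF was among those below, at 16.1 FPKM in control and 10.2 FPKM with SAF-A siRNA. ACTB was too, at 872.6 and 581.0 FPKM, and both had bounds apart from control.

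**Figure D5:**
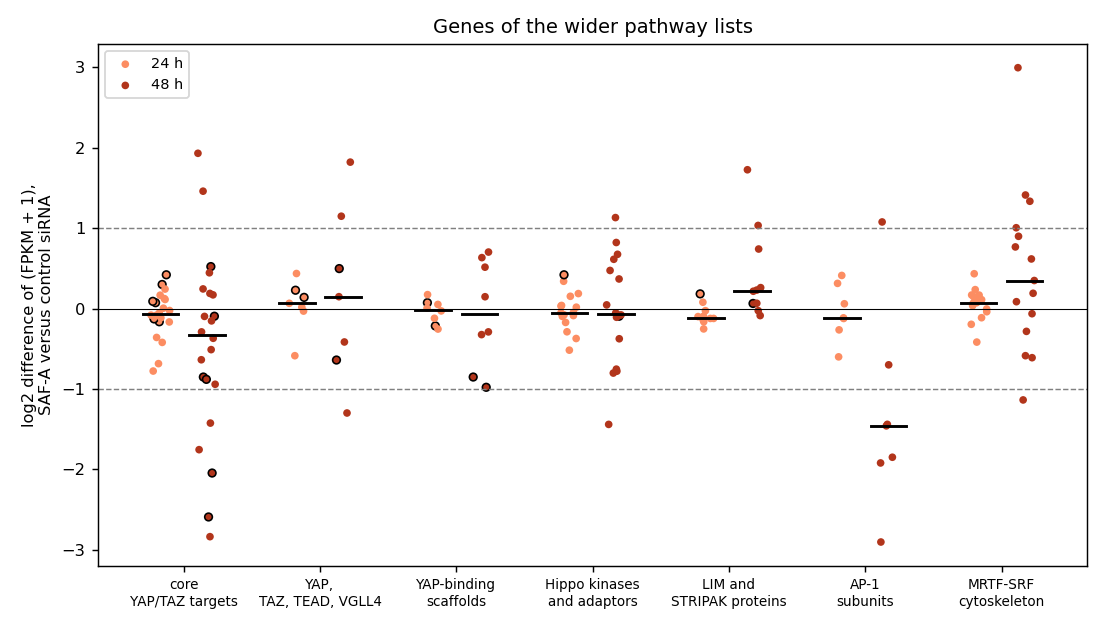
Difference in log2(FPKM + 1) between SAF-A and control siRNA (vertical axis) for the tested genes of 7 lists (horizontal axis), light points at 24 h and dark points at 48 h, with horizontal bars for list medians, dashed lines at 2-fold and dark outlines for the 10 genes. The spread is wider at 48 h in every list, AP-1 has the lowest median, -1.46, and ACTA2 is the highest point, at 3.00.

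Relatives of the 10 genes, 16 in all, were mostly at low levels, and 10 of them were tested. At 48 h 3 were at least 2-fold higher, CCN3, TEAD2 and MERTK, and 2 were lower, WWTR1 and TYRO3, against 14.3% and 18.5% of all tested genes, with a median of 0.18. None was past 2-fold at 24 h, when the median was -0.01 and became 0.06 after centring. CCN3, a CCN protein that can oppose CCN2, was at 2.32, 2.47, 0.949 and 5.14 FPKM in the order of the groups above, from about 15 reads in the last library, and CCN4, CCN5 and CCN6 were below 0.1 FPKM in every library. Of the receptors related to AXL, TYRO3 was at 6.89, 6.67, 5.78 and 2.18 FPKM and MERTK at 0.989, 1.30, 1.06 and 4.32 FPKM. AXL was the main receptor of its family by FPKM in each library, and ANKRD1 that of its own, with ANKRD2 at most 0.716 FPKM and ANKRD23 at most 1.19 FPKM.

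Markers were compared with the label of the line. Of 8 markers of retinal pigment epithelium, RPE65 and TTR were at 0 in every library, RLBP1, TYR, PMEL and BEST1 were below 1 FPKM, and MITF and OTX2 were present, at 4.23 to 9.01 and 2.16 to 3.77 FPKM. Their summed level was 12.3, 8.62, 13.4 and 7.36 FPKM in the order of the groups above. The differentiated markers of the labelled tissue were thus absent or near 0. Of 5 epithelial markers, KRT8 and KRT18 were tested and both were at least 2-fold lower at 48 h (18.5% of all tested genes), KRT18 at 229.1 FPKM in control and 23.3 FPKM with SAF-A siRNA, while the bounds of KRT8 overlapped with control, and EPCAM, CDH1 and KRT19 were at or near 0. Their sum was 183.7, 160.6, 293.0 and 38.8 FPKM. Of 5 mesenchymal markers 4 were tested, with 1 at least 2-fold higher at 48 h (14.3% of all tested genes), VIM, at 1586 FPKM in control and 3312 FPKM with SAF-A siRNA, and their sum was 2635, 2314, 1957 and 3690 FPKM. Of 7 markers of other cell types TUBB3 and CD68 were tested, their sum was 86.8, 76.8, 57.9 and 23.4 FPKM, and PTPRC, CD3E, PECAM1, CDH5 and GFAP were below 0.4 FPKM in every library. At 48 h KRT18 was thus lower along with CCN2 and ANKRD1. Among the mesenchymal markers VIM and CDH2 were higher with bounds apart from control. FN1, at 319.1 FPKM in control and 294.1 FPKM with SAF-A siRNA, and COL1A1 had overlapping bounds. The part of these differences in the result was not tested.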

How the data were processed

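RNA from RPE1 cells was sequenced in 4 libraries, 1 per group, named for their siRNA and time in the labels. The submitters' processing notes name TopHat2 2.0.10, Bowtie2 2.1.0, Cufflinks 2.2.1, Cuffdiff and hg19, without roles. The authors deposited FPKM values with 95% bounds per RefSeq accession, per the file headers. How reads with several matches or of either strand were counted is not given in the sources used here. The deposited transcript files also hold coverage, a signal from which mapped reads were derived (coverage per FPKM). Rows were matched to symbols through RefSeq GRCh38.p14, used for names (97.1% of rows), and FPKM and bounds were summed per symbol. Summed bounds are wider than those of a sum.

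Differences are in log2(FPKM + 1), and called means at least 2-fold. This understates differences of low genes. Estimated reads are FPKM times effective length (fragments of 200 ± 80 nt) times mapped reads. Ratio intervals are exact binomial at 95% and cover counting error only, since reads carry no molecular identifiers. Exons came from the deposited transcript files, and 100% of 180 internal member exons matched GENCODE on GRCh37. The comparison was tested on simulated data with every library at a depth near that of the deeper libraries. That simulation does not cover calls at the depth of the SAF-A library at 48 h. The members, lists and named genes were chosen with earlier results of these data known. Named genes are the 10, HNRNPU, their family members, the extremes of each list and the 3 nearest patterns of CCN1, CCN2 and YAP1, and other list genes were named after their values were seen. Alternatives were a pseudocount of 0.1, a mean of at least 5 FPKM or none, no length minimum, TPM, centring, a 1.5-fold threshold, bounds that must not overlap and the most abundant row of a gene. A search of protein motifs was planned and not run here. A few genes that these rules name are not reported here. Python 3.11.15, pandas 2.3.3, numpy 2.4.6 and scipy 1.17.1 were used.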

Additional observations from a re-analysis of the deposited data

Results flagged for a closer look

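Only CCN1 and CCN2 were on opposite sides of control at 24 h and 48 h with authors' bounds apart at both times, among the 10 genes. For CCN2 the difference from control in log2(FPKM + 1) was 0.30 at 24 h and -2.59 at 48 h, a change of -2.89 between the times. For CCN1 it was 0.09 at 24 h and -0.88 at 48 h, a change of -0.97. With 1 library per group the difference between the times was not tested. The value of CCN1 at 24 h became -0.09 after rescaling to TPM, so its direction at that time is not settled. The 48 h value of each rests on the library with 1216740 mapped reads, from about 149 estimated reads for CCN1 and 38 for CCN2.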

How the results depend on the processing

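Each count of the 10 genes past 2-fold was recomputed under 9 alternatives, 72 values in all, of which 70 stayed within 1.5 times the reported count. Most of the reported counts were 0. Looser filters could not change any count, since all 10 genes had already passed, and stricter filters could not raise a count of 0. At a threshold of 1.5-fold, 6 genes were lower with SAF-A siRNA at 48 h in place of 2, while the background rose from 18.5% to 31.4%. By the most abundant RefSeq row, 1 gene, YAP1, was at least 2-fold lower in control at 48 h than in control at 24 h, in place of 0. With a pseudocount of 0.1 or on the TPM scale the count at 48 h was 3, with AMOTL1 added. Many of the 236 recomputed differences of single genes could not change. A filter on mean FPKM leaves a gene's difference as it is, and a gene with a single RefSeq row has no other row to count by. In all, 41 of the 236 moved by more than the margin of their counting interval, which does not cover such choices. ANKRD1 at 24 h, for example, went from -0.16 to -0.35 on the TPM scale. Of the 236, 9 changed sign. On the TPM scale these were CCN1 (-0.09), AMOTL2 (-0.11) and TEAD1 (-0.03) at 24 h, and AJUBA between the SAF-A libraries (0.19). After centring it was LATS2 at 48 h (0.01). By the most abundant row they were AMOTL2 at 24 h (-0.32), AXL at 48 h (-0.20) and between the SAF-A libraries (-0.48), and AJUBA between the SAF-A libraries (0.02). CCN2 and ANKRD1 stayed at least 2-fold lower at 48 h under every alternative that was run. Rescaling to TPM moved the median of all tested genes at 24 h from -0.07 to -0.23, and between the SAF-A libraries from -0.01 to 0.18. The numbers of all tested genes at least 2-fold higher and lower at 24 h, 43 and 27 as reported, were 213 and 145 with no length minimum, 156 and 166 by the most abundant row, 78 and 58 with a pseudocount of 0.1, 26 and 5 among genes averaging 5 FPKM or more and 162 and 131 at 1.5-fold. Between the control libraries, 62 and 47 as reported, they were 208 and 158, 196 and 194, 134 and 105, 37 and 29, and 318 and 256 in the same order. Among genes averaging 5 FPKM or more, 1284 genes were lower at 48 h (2040 as reported) and 1121 between the SAF-A libraries (1769), and at 1.5-fold 2775 were higher and 3468 lower at 48 h (1581 and 2040), with 3034 and 3114 between the SAF-A libraries (1717 and 1769). A fit that pairs the siRNAs by time was not run, and leaving out a library would remove its group. The depth of the SAF-A library at 48 h limits genes and transcripts with few estimated reads there, such as LATS2 and the YAP1 transcripts.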
